A study of Danio rerio with 9 samples.

Results

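The Piwi and Tudor pathway genes code for Piwi proteins, proteins with Tudor domains and their partners in the piRNA pathway. They were chosen by name from a list of 10 symbols, and 8 of these, piwil1, piwil2, tdrd1, tdrd6, tdrd7a, tdrd9, tdrkh and asz1, were found by exact symbol among the 32266 genes with deposited values. The names mael and mov10l1 matched no symbol in that spelling, mael was not analysed here, and a gene spelled MOV10L1 is given apart and not counted. Levels are given as FPKM (fragments per kilobase of exon, scaled to the mapped fragments of the cell), so that genes can be compared per unit of length. The filter of the study, 3 or more of the 9 cells with an FPKM of 1 or more, kept 9329 genes, and 6 of the 8 were among them. The genes that did not pass were piwil2 and tdrkh.

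Piwi proteins are germline Argonaute proteins that carry piRNAs, small RNAs that guide the silencing of transposons. Tudor domains bind dimethylated arginines, which Piwi proteins carry near their start, and proteins with several Tudor domains hold Piwi proteins together in germ granules. In zebrafish, primordial germ cells (PGCs) are set apart by maternally supplied germ plasm, whose granules contain RNAs and Tudor proteins, so that the RNA of a pathway gene in an early PGC can be of maternal origin or made by the cell.

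The cells were single PGCs of AB strain embryos collected 6 hpf (hours post fertilization, at shield), 11 hpf (with 3 somites) and 24 hpf (at prim-5), with no experimental treatment named in the labels. All embryos carried a kop-egfp-nanos3-3ʹUTR transgene, whose green fluorescence was used to pick each cell by hand with a capillary, at 24 hpf after anaesthesia from a minced trunk freed of head, tail and yolk. Each stage was represented by 3 cells of 1 embryo, named 6_1 to 24_3, so that stage, embryo and the handling at 24 hpf cannot be told apart, and no difference between stages was tested. A gene was called lower or higher when its log2(mean FPKM + 1) differed by at least 1, which is 2-fold on that scale, and when the cells of both stages did not overlap. The spread beside a difference is the root of the summed squared SDs of log2(FPKM + 1) within both stages.

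The label of the cells was checked against 5 germ cell markers, ddx4, dnd1, nanos3, dazl and ca15b, which were above 0 in all 9 cells. At an FPKM of at least 10, the threshold used below, dazl fell short in 6_2 (4.96) and 24_1 (5.17). The nanos3 values may include reads of the transgene. Of 8 skeletal muscle markers, 6 in 24_1 and 7 in 24_2 had an FPKM of at least 10, with summed FPKM of 605 and 2400, against 0 to 1 markers and sums of 0 to 25.9 in the other 7 cells. In 24_3 the muscle genes actc1b and tnnc2 were at 4.11 and 5.45. Of 6 neural markers, fabp7a was at 108, 144 and 60.9 in 24_1, 24_2 and 24_3 and at 0 in the 6 earlier cells. The other neural markers were at 0 in the cells at 24 hpf, except elavl4 at 2.48 in 24_3. Thus 24_3 was not free of markers of other cells, although these were few genes of their lists. The yolk and gut genes apoa2 and apoa1b were at 358 and 139 in 24_2, where sox17, sox32 and foxa3 of the same list were at 0. Of 6 epidermal markers, 3 in 24_1 and 11_2, 5 in 11_1 and 2 in 6_1 had an FPKM of at least 10. These counts include epcam, which was between 60.6 and 261 in all 9 cells. The gene krt4 was at 187 in 24_1 and 122 in 11_1. Markers of other cells were not confined to 24 hpf. The notochord marker ta was at 114 in 6_1, 84.4 in 6_3, 26.2 in 11_1 and 96.4 in 11_2. It was at 0 in the other 5 cells. The notochord markers shha, col9a1a and col2a1a were at 0 in all 6 earlier cells. The neural marker neurog1 was at 22.4 in 11_2, where the other 5 neural markers were at 0. The gene apoeb of the yolk and gut list was between 107 and 387 in the 6 earlier cells. There apoa2, sox17 and foxa3 of that list were at 0, apoa1b at most 3.87 and sox32 at most 4.41. The part of these transcripts in the results was not tested. FPKM hold no read counts, and the number of reads behind a single value is not given. The study reported the paired reads of each library, which were not used here. A value of exactly 0 can be a transcript that was missed: among genes that reached an FPKM of 1 in the 8 other cells, the share listed at 0 in the remaining cell ran from 3.34% (6_3) to 16.2% (24_1). The pathway genes other than tdrd7a and asz1 reached an FPKM of 1 in at most 6 cells. They are not among those genes, and the share of their values that were missed is unknown. A lower level in a cell and a poorer capture of its RNA cannot be told apart from these values.

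The main result is that tdrd7a alone held most of the summed FPKM of the 8 genes in every cell, between 59.8% (11_3) and 94.8% (11_2). In each cell at 6 and 11 hpf asz1 came next, but it was below piwil1 in 24_1 and at 0 in 24_2. Together tdrd7a and asz1 made up between 88.6% (24_2, all of it tdrd7a) and 99.6% (11_1). Both were called lower from 6 to 24 hpf, as were 14.2% of the kept genes. The asz1 difference of -2.44 lay within its spread of 3.22. The other 6 genes had mean FPKM over the 9 cells between 1.80 and 8.97, and 30 of their 54 values were listed at 0. In every cell tdrd7a thus stood far above both Piwi genes, whose highest value was 30.2.

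**Figure D1:**
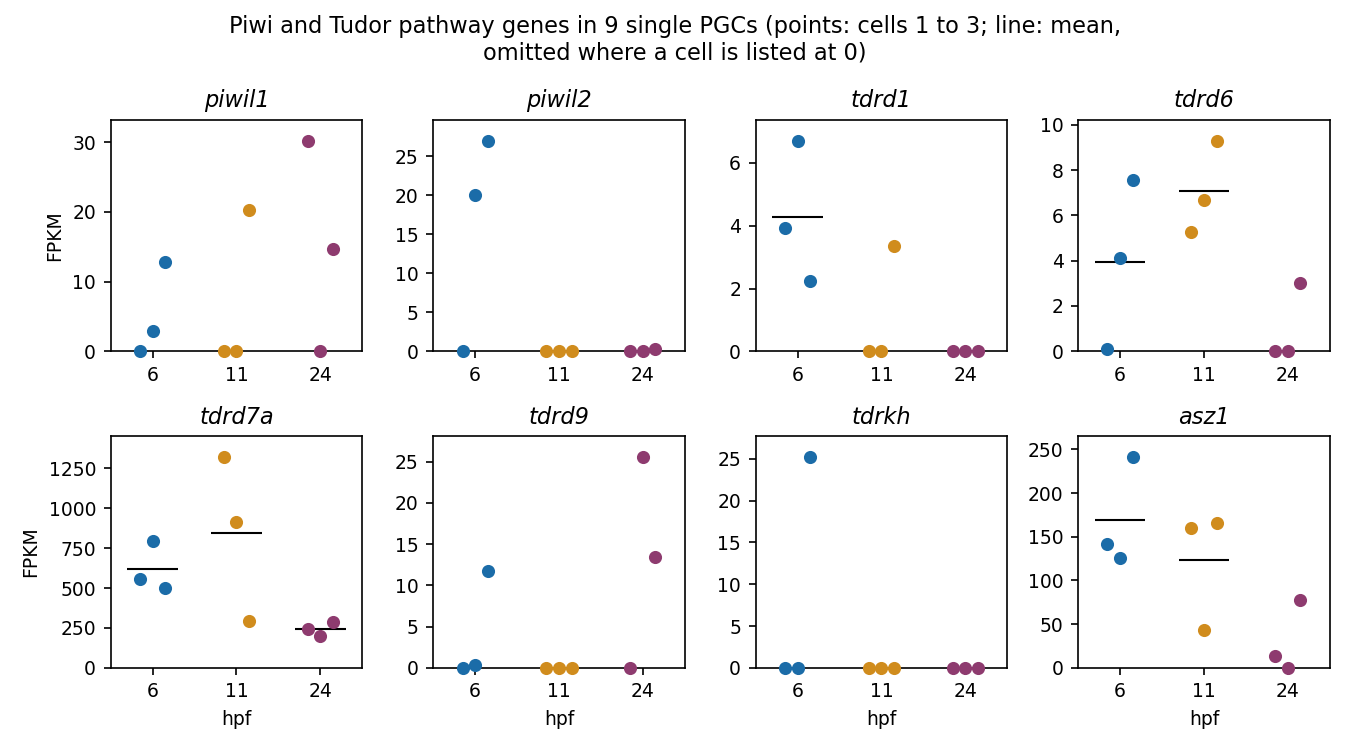
FPKM of the 8 Piwi and Tudor pathway genes (linear axis, a scale of its own for each gene) in 3 cells at each of 6, 11 and 24 hpf; each point is 1 cell, and the line is the mean of the 3 cells, left out where a cell is listed at 0. Only tdrd7a is above 0 in all 9 cells, between 198 and 1319, while tdrkh is above 0 in 1 cell.

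Both Piwi protein genes were low, and an FPKM of 1 was reached by piwil1 in 5 of the 9 cells and by piwil2 in 2. The gene piwil1 (ENSDARG00000041699), also known as ziwi, codes for the Piwi protein whose loss in zebrafish leads to the death of germ cells. Its FPKM was listed at 0 in 6_1 and was 2.97 in 6_2 and 12.7 in 6_3. At 11 hpf it was listed at 0 in 11_1 and 11_2 and was 20.2 in 11_3. At 24 hpf it was 30.2 in 24_1, listed at 0 in 24_2 and 14.6 in 24_3. Each stage thus had at least 1 cell at 0, the 3 stages overlapped, and the differences of 0.31 from 6 to 11 hpf and 1.04 from 11 to 24 hpf lay within spreads of 3.17 and 3.66.

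The gene piwil2 (ENSDARG00000062601), or zili, codes for the second zebrafish Piwi protein, which is needed for germ cell differentiation and meiosis. It had an FPKM of 19.99 in 6_2 and 27.0 in 6_3 and was listed at 0 in 6_1. After 6 hpf it was listed at 0 in 5 of 6 cells and was 0.29 in 24_3. It was thus seen above an FPKM of 1 only in 2 cells of the youngest embryo, and the third cell of that embryo overlapped with both later stages. When 6_1 was left out, piwil2 was called lower at 11 hpf and at 24 hpf.

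Among the Tudor domain genes, tdrd7a (ENSDARG00000032808) codes for a germ plasm protein that organises the granules of zebrafish PGCs. In 6_1, 6_2 and 6_3 its FPKM was 557, 797 and 502. At 11 hpf it was 1319 in 11_1, 916 in 11_2 and 296 in 11_3. At 24 hpf it was 241, 198 and 287. The cells at 11 hpf were the most unequal, 4.46-fold from lowest to highest, against 1.59-fold at 6 hpf and 1.45-fold at 24 hpf. All 3 cells at 24 hpf were below all 6 earlier cells, but by a narrow margin at 11 hpf, where 11_3 exceeded 24_3 by little.

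The difference of tdrd7a was -1.80 (spread 1.15) from 11 to 24 hpf and -1.35 (spread 0.44) from 6 to 24 hpf on the log2(mean FPKM + 1) scale. Both were larger than the spread between cells, and tdrd7a was called lower in both comparisons. At 24 hpf the difference from 11 hpf ranged from -1.32 to -2.20 when single cells were left out. From 6 to 11 hpf the difference of 0.45 lay within its spread of 1.18, and it was -0.03 without 11_1 and -0.58 when each cell was divided by its actb1 (beta-actin) value, a scaling that moved the median of all kept genes to -0.99.

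Rank within a cell does not depend on scaling. By rank among all 32266 genes tdrd7a stood at places 87, 48 and 90 in 6_1, 6_2 and 6_3. Its places were 17, 30 and 255 in the cells of the 11 hpf embryo and 491, 611 and 360 in those of the oldest. Among kept genes it lay at percentile 97.3 or above in all 6 cells at 6 and 11 hpf and between 93.5 and 96.2 at 24 hpf. Its rank at 24 hpf was thus lower than in each earlier cell, while it was still among the more abundant transcripts of the cell.

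The gene tdrd6 (ENSDARG00000070052) codes for a large protein of several Tudor domains that in zebrafish binds the germ plasm organiser Bucky ball. It was low but more evenly found than the other low genes. Its FPKM was 0.085, 4.12 and 7.58 at 6 hpf. The cells of the 11 hpf embryo had 5.26, 6.66 and 9.30. At 24 hpf it was listed at 0 in 24_1 and 24_2 and was 3.01 in 24_3. All 3 cells at 11 hpf were above all 3 at 24 hpf, and tdrd6 was called lower with a difference of -2.01 (spread 1.21), which was -0.63 with a pseudocount of 10, below the 2-fold threshold. With 24_3 alone at 24 hpf it was -1.01, just past the threshold, and without 24_3 it was -3.01. From 6 to 11 hpf the cells overlapped, and the difference was 0.71 (spread 1.59). When 6_3 was left out, tdrd6 was called higher at 11 hpf than at 6 hpf.

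The gene tdrd1 (ENSDARG00000007465) codes for a Tudor protein that binds both Piwi proteins in zebrafish. In 6_1, 6_2 and 6_3 its FPKM was 3.92, 6.71 and 2.23. At 11 hpf it was listed at 0 in 11_1 and 11_2 and was 3.37 in 11_3, and at 24 hpf it was listed at 0 in all 3 cells. It was thus found in every cell of the youngest embryo, in 1 of 3 cells at 11 hpf and in none at 24 hpf. It was called lower from 6 to 24 hpf, although not with a pseudocount of 10, and no fold is given against cells listed at 0. From 6 to 11 hpf 11_3 overlapped with the cells at 6 hpf, and tdrd1 was called lower without 11_3, without 6_3 or after division by actb1.

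The gene tdrd9 (ENSDARG00000013453) codes for a helicase with a Tudor domain that represses transposons in the mouse germline. It was listed at 0 in 6_1 and was 0.30 in 6_2 and 11.7 in 6_3. It was listed at 0 in all 3 cells at 11 hpf. At 24 hpf it was listed at 0 in 24_1 and was 25.5 in 24_2 and 13.4 in 24_3. Only tdrd9 and piwil1 had their highest value at 24 hpf, but 24_1 overlapped with all cells at 11 hpf, and tdrd9 was called higher at 24 hpf only when 24_1 was left out. Without 6_1 it was called lower from 6 to 11 hpf. Of the cells with muscle markers, 24_2 carried tdrd9 and 24_1 did not, and 24_3, with no muscle marker at an FPKM of 10, carried it too. The part of muscle transcripts and of capture in these values was not tested.

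The gene tdrkh (ENSDARG00000053474) codes for a mitochondrial Tudor protein that takes part in the trimming of piRNAs in the mouse. It had an FPKM of 25.2 in 6_3 and was listed at 0 in the other 8 cells. No comparison between stages can be drawn from a gene found in 1 cell.

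The gene asz1 (ENSDARG00000004823), or gasz, codes for a protein of the mitochondrial outer membrane that anchors piRNA processing factors in the mouse. Its FPKM was 141, 125 and 241 at 6 hpf. In 11_1, 11_2 and 11_3 it was 160, 43.2 and 166. At 24 hpf it was 13.0 in 24_1, listed at 0 in 24_2 and 78.2 in 24_3. The cells at 24 hpf were all below those at 6 hpf, but 24_3 exceeded 11_2. Accordingly asz1 was called lower from 6 to 24 hpf, with a difference of -2.44 that lay within its spread of 3.22, and not from 11 to 24 hpf, with -1.98 (spread 3.36). It was called lower from 11 to 24 hpf, which brought the count to 3, without 11_2 (-2.38), without 24_3 (-4.05) and after division by actb1 (-2.47). Under these settings 14%, 14% and 12.5% of the kept genes were called lower.

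The level of asz1 at 24 hpf rested on single cells. Its difference from 6 hpf was between -1.87 and -4.51 when single cells at 24 hpf were left out. With 24_3 alone at that stage, the cell with no muscle marker at an FPKM of 10 but with fabp7a, it was -1.10 from 6 hpf and -0.65 from 11 hpf. It was above an FPKM of 1 in all 8 cells other than 24_2, where 111 (5.99%) of 1854 such genes were listed at 0. The part of muscle transcripts and of capture in these values was not tested.

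Per unit of length, tdrd7a exceeded asz1 in each of the 8 cells in which asz1 was above 0, by between 1.78-fold in 11_3 and 21.2-fold in 11_2. The ratio varied within every stage, for example between 2.08 and 6.36 at 6 hpf. The measured FPKM of both genes were therefore not in a fixed proportion from cell to cell. The part of capture in this was not tested.

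MOV10L1 (ENSDARG00000104777), named in upper case in the deposited table, shares its name with the helicase that starts piRNA processing in the mouse. Its FPKM was 4.82 in 6_1, 5.22 in 6_3 and 2.77 in 11_3, while 6_2 and the 5 remaining cells were at 0. Like tdrd1, it was not found in any cell at 24 hpf. It was not called in any comparison, since at least 1 cell of each stage was at 0.

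Counted per cell, the 8 genes were found most often in the youngest embryo. The number with an FPKM of at least 1 was 3, 6 and 8 in 6_1, 6_2 and 6_3. It was 3, 3 and 5 in the 11 hpf embryo and 3, 2 and 5 in the oldest. Of the kept genes, between 72.6% and 76.1% reached an FPKM of 1 in the cells at 6 hpf. This share was between 66.5% and 67.9% at 11 hpf and between 51.2% and 64.2% at 24 hpf, so detection fell over the kept genes as well. It was highest in 6_1 (76.1%), which had only 3 of the 8 genes. In 6_3 all 8 genes were found and in 6_1 only tdrd1, tdrd7a and asz1, so that cells of the same embryo lay far apart, and the stages overlapped.

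The 6 low genes, that is all but tdrd7a and asz1, reached an FPKM of 1 in 11 of 18 values (61.1%) at 6 hpf. At 11 hpf this was 5 of 18 (27.8%) and at 24 hpf again 5 of 18. All 6 were found in some cell at 6 hpf, 3 (piwil1, tdrd1, tdrd6) at 11 hpf and 3 (piwil1, tdrd6, tdrd9) at 24 hpf. Over the 5055 genes of the table with mean FPKM in the range of these 6 genes, 36.6%, 30.2% and 29.5% of values reached an FPKM of 1 at 6, 11 and 24 hpf. The excess at 6 hpf came from 6_2 and 6_3, with 4 and 6 of the 6 genes, while 6_1 had 1.

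**Figure D2:**
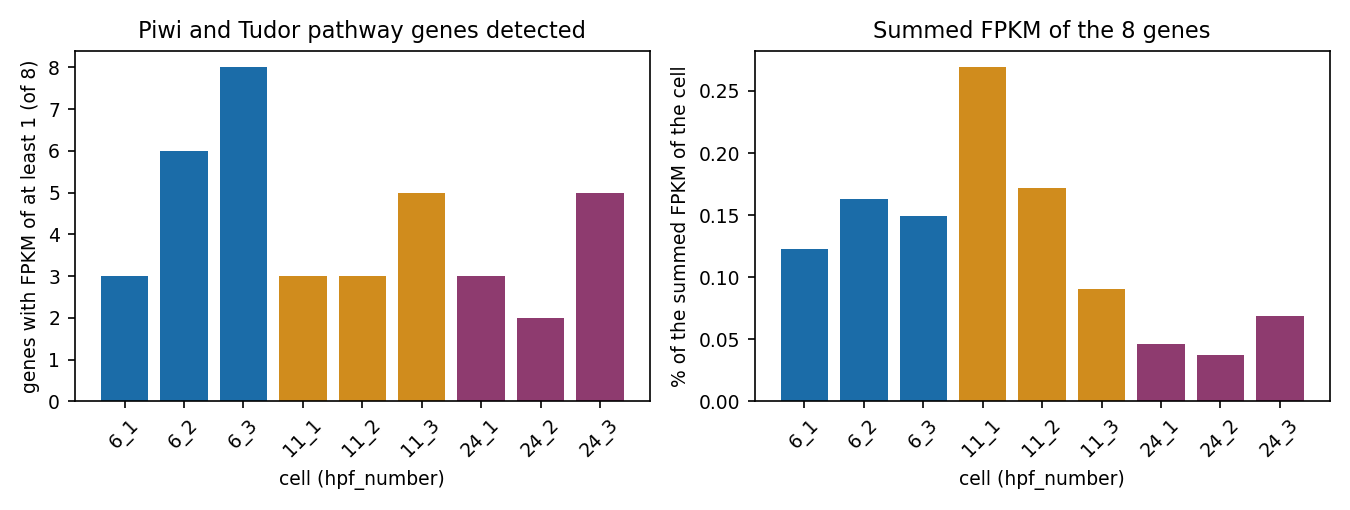
Left, the number of the 8 Piwi and Tudor pathway genes with an FPKM of at least 1 in each cell; right, their summed FPKM as a percent of the summed FPKM of the cell. The bars (blue 6 hpf, orange 11 hpf, purple 24 hpf) show 3 to 8 genes at 6 hpf and 2 to 5 later, and the lowest sums in all 3 cells at 24 hpf.

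The summed FPKM of the 8 genes was 0.123%, 0.163% and 0.149% of all FPKM in 6_1, 6_2 and 6_3. In the 11 hpf embryo it was 0.269%, 0.172% and 0.0902%, and in the oldest 0.0463%, 0.0378% and 0.0688%. All 3 cells at 24 hpf were thus below all 6 earlier cells, while the cells at 11 hpf spanned those at 6 hpf. Since tdrd7a held between 59.8% and 94.8% of the sum, this share follows tdrd7a and says little of the other genes.

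By stage, 0 of the 8 genes were called lower and 0 higher from 6 to 11 hpf, when 6.19% and 4.89% of the kept genes were called in these directions. Without the condition on overlap 4 of the 8 were lower by 2-fold on the mean (tdrd1, tdrd9, piwil2 and tdrkh) and 0 higher, beside 21.8% and 21.7% of the kept genes, and each of these had a cell at 11 hpf within the range at 6 hpf. The median difference over the 8 genes was -0.89, beside 0.029 over all kept genes, with 5 genes below and 3 above 0. The 8 include piwil2 (-4.06) and tdrkh (-3.23), which did not pass the filter, so the kept genes are an unlike set for medians and shares. The median of the 8 was -0.06 without 6_3, the cell in which all 8 genes were found, and -2.36 without 11_3. It was 0.31 over the genes with an FPKM of at least 5 in 3 cells and -2.05 after division by actb1.

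From 11 to 24 hpf 2 of the 8 (tdrd7a and tdrd6) were called lower, beside 9.79% of the kept genes, and 0 higher, beside 7.89%. The median difference was -0.54, beside -0.080 over all kept genes, with 4 genes below 0, 3 above and tdrkh at 0 in all 6 cells. It was 0 without 11_3 and -1.80 over the genes with an FPKM of at least 5 in 3 cells. Of the 8, piwil2 (0.13) and tdrkh did not pass the filter of the kept genes. On the mean alone 4 (tdrd7a, tdrd6, tdrd1 and asz1) were lower and 2 (piwil1 and tdrd9) higher, beside 31.5% and 26.1% of the kept genes. The differences ranged from -2.01 for tdrd6, which was called, to 3.81 for tdrd9, which was not.

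From 6 to 24 hpf, a comparison that shares its cells with the others, 3 of the 8 (tdrd7a, tdrd1 and asz1) were called lower, beside 14.2% of the kept genes, and 0 higher, beside 9.83%. The median was -1.88, beside -0.10 over all kept genes, with 6 genes below and 2 (piwil1 and tdrd9) above 0. On the mean alone 6 were lower and 2 higher, beside 33.3% and 27.5% of the kept genes. These 6, and the 8 of the median, include piwil2 (-3.93) and tdrkh (-3.23), which did not pass the filter. Without 6_1 the number called lower was 5, with piwil2 and tdrd6 added, beside 18.5% of the kept genes. It was 2, without tdrd1, with a pseudocount of 10 or a filter at an FPKM of 5, beside 11.4% and 14.7%. Without 24_1, tdrd9 was called higher, beside 15.3% of the kept genes, and, without 24_2, piwil1, beside 13.3%.

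**Figure D3:**
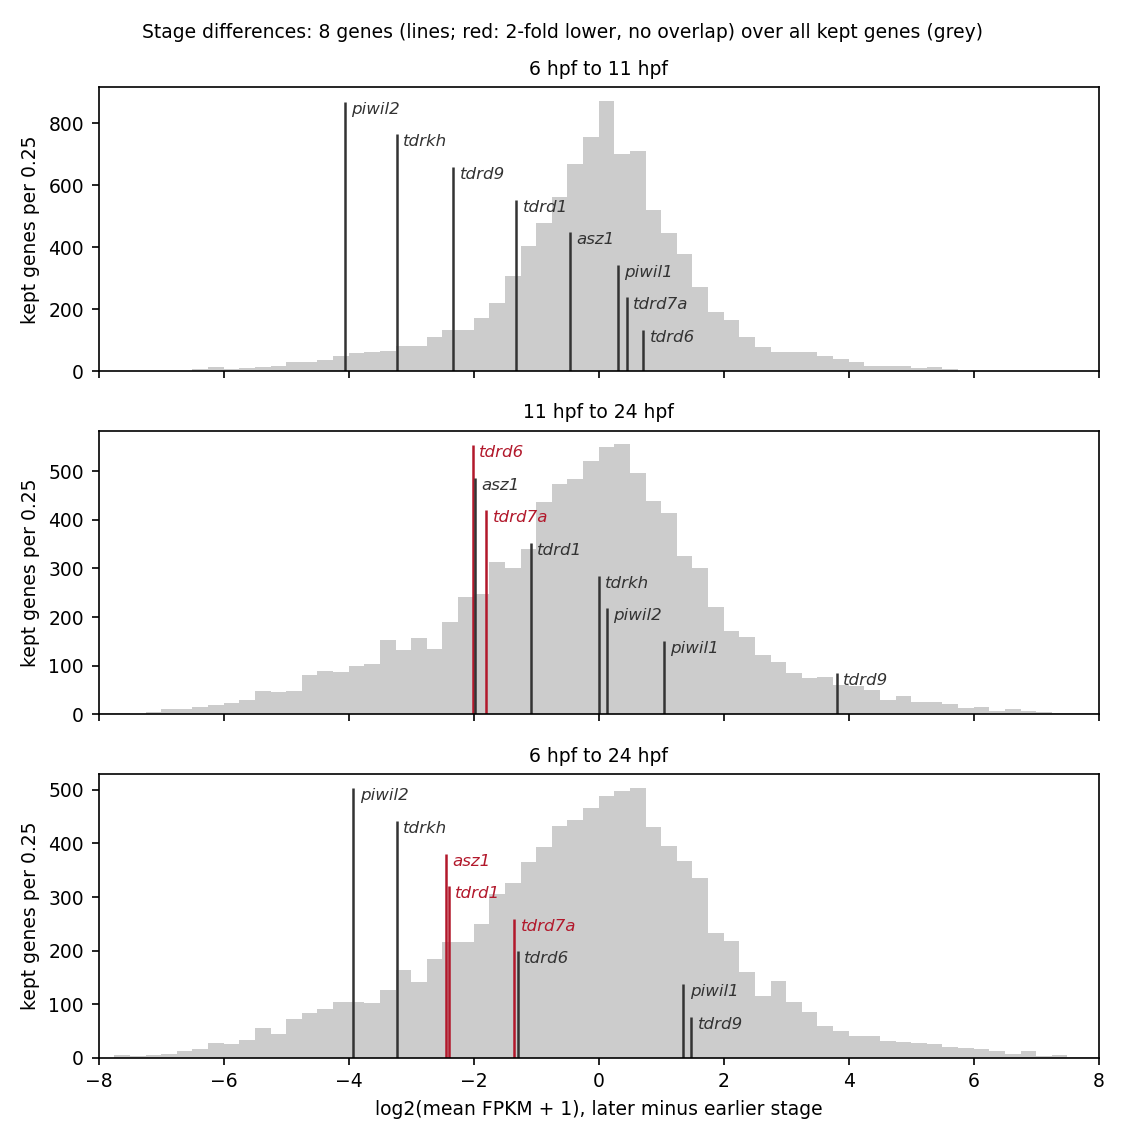
Difference in log2(mean FPKM + 1) between stages (x axis, later minus earlier) for all 9329 kept genes (grey histogram, number of genes per bin of 0.25) and for the 8 Piwi and Tudor pathway genes (lines; heights only separate the names). Red lines are genes called lower, 0 from 6 to 11 hpf, 2 from 11 to 24 hpf and 3 from 6 to 24 hpf.

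Over the 9 cells the 6 kept genes were not strongly alike. Pearson's r of log2(FPKM + 1) between pairs of them, a description over 9 cells of 3 embryos, was above 0 for 10 of 15 pairs, with a median of 0.17. It was highest for tdrd6 with asz1 (0.66) and lowest for piwil1 with tdrd7a (-0.52). The cells with the most piwil1, 24_1 and 11_3, had little tdrd7a for their stage or came from the stage in which tdrd7a was lowest.

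The level of tdrd7a was then set beside 11 genes of germ plasm and PGC biology. They include dnd1, an RNA-binding protein that protects germline mRNAs, ddx4 (vasa), a helicase of germ granules that also serves the piRNA pathway, nanos3, a translational repressor, and gra, a germ plasm transcript of zebrafish. Over the 9 cells r with tdrd7a was 0.88 for dnd1, 0.88 for nanos3, 0.86 for ddx4 and 0.84 for gra, and between 0.051 and 0.73 for the other 7. The value of gra, reached by 4 of the 11, comes from the list itself and was taken as a mark after the values were seen. Of all 9328 other kept genes 1.98% reached it, and their median r was 0.070. The points share embryo, stage and capture, and tdrd7a and all 11 genes had a lower mean at 24 hpf than at 11 hpf. The part of this fall in r was not tested.

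Within the 11 hpf embryo the 3 cells fell in the same order for tdrd7a, dnd1 and nanos3. The FPKM of dnd1 was 6955 in 11_1, 5362 in 11_2 and 2115 in 11_3. That of nanos3 was 24068 in 11_1, 20372 in 11_2 and 12389 in 11_3. Of the 11 genes 6 were highest in 11_1, as tdrd7a was, and 7 were lowest in 11_3. At 6 hpf 5 were highest in 6_2, as tdrd7a was, but 2 were lowest in 6_3 with it. At 24 hpf 4 were highest in 24_3 with tdrd7a and 2 lowest in 24_2. The ratio of tdrd7a to dnd1 varied between 0.129 and 0.359 over the cells, and that of tdrd7a to ddx4 between 0.772 and 1.90.

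**Figure D4:**
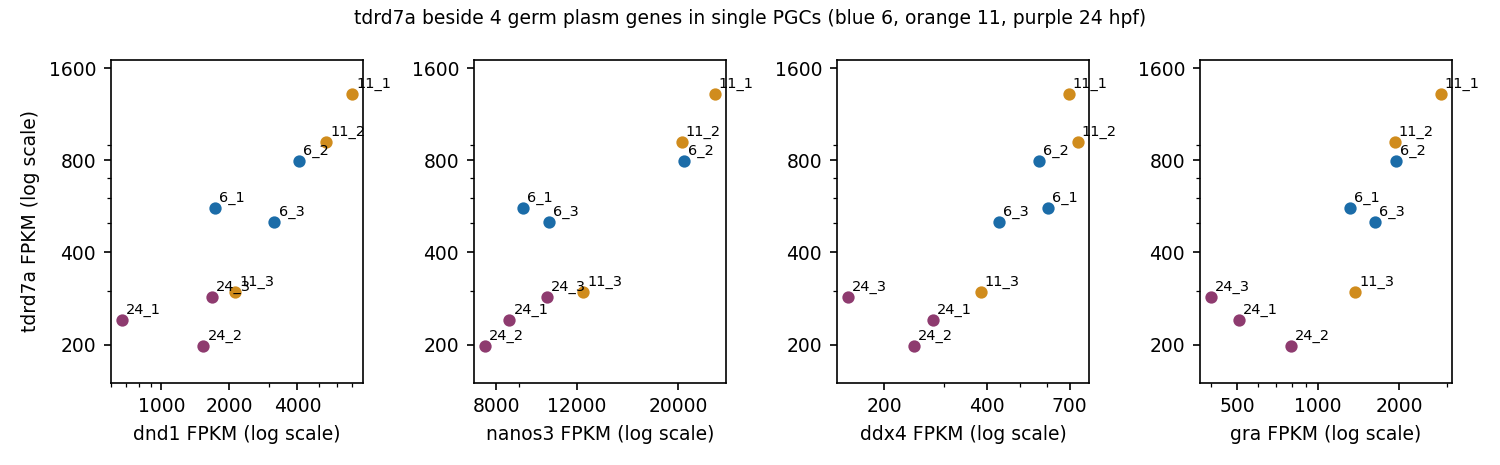
FPKM of tdrd7a (y axis, log scale) beside that of dnd1, nanos3, ddx4 and gra (x axes, log scale) in the 9 cells; each point is 1 cell, blue at 6, orange at 11 and purple at 24 hpf. The cells at 24 hpf lie at the low end of tdrd7a, between 198 and 287, and 11_3 lies nearest to them.

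As a list, the 11 germ plasm genes were lower at 24 hpf than at 11 hpf in all cases, with a median difference of -1.50, and 7 of them were called lower, beside 9.79% of all kept genes. Among those called, the largest falls were those of rgs14a, a regulator of G protein signalling, at -3.46 (spread 2.72), ca15b, a carbonic anhydrase marking PGCs, at -2.36 (spread 1.76), and dnd1 at -1.89 (spread 1.16). The FPKM of rgs14a was 123, 103 and 43.0 at 11 hpf and 21.8 in 24_2, while 24_1 and 24_3 were at 0. From 6 to 11 hpf 1 of the 11, dazl, an RNA-binding protein of germ cells, was called higher at 1.60, within its spread of 1.77, and 0 lower, beside 4.89% and 6.19% of all kept genes, with a median of 0.18. From 6 to 24 hpf 8 were called lower and 0 higher, beside 14.2% and 9.83%, with a median of -1.52. The levels of tdrd7a and tdrd6 from 11 to 24 hpf thus moved in the direction of all genes of this list. Several of its genes are known from earlier results on these cells, and the list is not independent evidence.

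Of 18 other genes of the piRNA pathway, 14 were matched and 13 kept. From 11 to 24 hpf 2 of the 14 were called lower and 2 higher, beside 9.79% and 7.89% of all kept genes, with a median of -0.051. The genes called lower were ddx39ab, an RNA helicase that was at 0 in 24_3, at -2.95, within its spread of 3.63, and ddx4 at -1.42 (spread 0.68). The FPKM of ddx4 was 695, 740 and 383 in the 11 hpf embryo and 278, 245 and 157 in the oldest, without overlap. From 6 to 11 hpf 0 of the 14 were called lower or higher, beside 6.19% and 4.89% of all kept genes, with a median of -0.12. From 6 to 24 hpf 2 were called lower and 3 higher, beside 14.2% and 9.83%, with a median of 0.0058. Among those called higher was hsp90ab1, a chaperone, at 1.01.

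The largest rise was that of henmt1 (ENSDARG00000018871), the methyltransferase that protects the ends of piRNAs. Its FPKM was listed at 0 in 5 of the 6 cells at 6 and 11 hpf and was 2.98 in 6_3. It was 85.4 in 24_1, 23.2 in 24_2 and 150 in 24_3. All 3 cells at 24 hpf were above all 6 earlier cells. The gene was called higher from 11 hpf and, with a difference of 5.45 (spread 1.78), from 6 hpf. The part of transcripts of other cells and of capture in these values was not tested.

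The other gene called higher was tdrd15 (ENSDARG00000014039), matched by gene ID and named si:dkeyp-93d12.1 in the deposited table, which codes for a protein with Tudor domains. Its FPKM was 13.6, 11.4 and 18.3 at 24 hpf and 6.40 in 6_2, and it was listed at 0 in the 5 other cells. The cells at 24 hpf did not overlap with any earlier cell, and the difference from 6 hpf was 2.30 (spread 1.70). At 24 hpf henmt1 and tdrd15 were thus higher than at 6 hpf, while tdrd7a, asz1 and ddx4 were lower and tdrd1 was at 0.

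The other Tudor domain genes, many of which act outside the germline, had a median difference of 0.047 from 11 to 24 hpf over 11 matched genes. Of these 0 were called lower and 1 higher, beside 9.79% and 7.89% of all kept genes. The gene called higher was phf20a, a chromatin reader, with FPKM of 7.10 in 11_2, 11.9 in 11_3 and 0 in 11_1. In 24_1, 24_2 and 24_3 it had 23.9, 14.6 and 25.6, a difference of 1.61 that lay within its spread of 2.01. From 6 to 11 hpf 1 gene was called lower and 0 higher, beside 6.19% and 4.89% of all kept genes. The gene called lower was stk31 (ENSDARG00000056339), a germ cell Tudor kinase known from the mouse, matched by gene ID. Its FPKM was 27.0, 11.8 and 11.2 at 6 hpf, at most 0.22 at 11 hpf and 5.001 in 24_2, while 24_1 and 24_3 were at 0. All 3 cells of the youngest embryo thus carried stk31, as they carried tdrd1. From 6 to 24 hpf stk31 alone was called lower, at -2.73 (spread 1.64), and 0 genes higher, beside 14.2% and 9.83%. The gene phf1 was listed at 0 in all 9 cells.

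The Argonaute and microRNA machinery is the related small RNA pathway of all cells. It had a median difference of 0 from 11 to 24 hpf over 12 matched genes, of which 9 were kept. With 5 genes below and 5 above 0, this median fell on genes at 0 in all cells compared, xpo5 among them. The list had 1 gene called lower, ago3b, at -2.99 (spread 2.003), and 0 called higher, beside 9.79% and 7.89% of all kept genes. The FPKM of ago3b was 14.5, 6.26 and 0.049 at 11 hpf, and all cells at 24 hpf were listed at 0, so that the difference depends on the pseudocount. From 6 to 24 hpf ago3b alone was again called lower, at -2.97 (spread 1.91), and 0 genes higher, beside 14.2% and 9.83%. From 6 to 11 hpf 0 were called lower or higher, beside 6.19% and 4.89%. The gene xpo5, spelled in upper case in the table, was listed at 0 in all 9 cells. The difference between these lists was not tested.

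**Figure D5:**
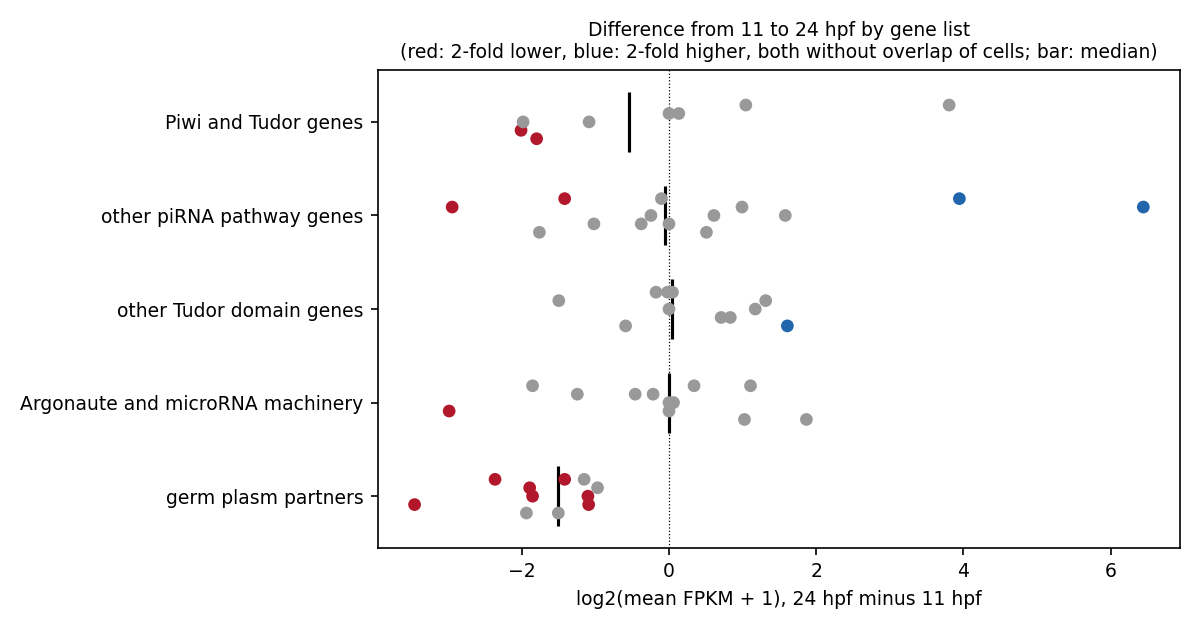
Difference in log2(mean FPKM + 1) from 11 to 24 hpf (x axis, 24 hpf minus 11 hpf) for each matched gene of the Piwi and Tudor pathway genes and 4 further lists; each point is 1 gene, red if called lower, blue if called higher and grey otherwise, and the bar is the median of the list. The germ plasm genes lie below 0 throughout, with a median of -1.50, while the medians of the other 4 lists lie between -0.54 and 0.047.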

How the data were processed

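Reads were trimmed (Trimmomatic), aligned to danRer10 (HISAT2 2.0.5) and assigned to Ensembl release 89 genes (StringTie 1.3.3) by the authors, who deposited a table of unfiltered FPKM values that holds no counts. Columns were matched to samples by the cell codes in the titles. Summed FPKM per cell was between 548917 and 613048. Python 3.11.15, numpy 2.4.6, pandas 2.3.3 and matplotlib 3.10.9 were used, with a pseudocount of 1. The code for differences and calls was tested on simulated data, which says nothing of the stages compared. List genes were matched by symbol, then in other case, then by gene ID. Named were all members, from each list up to 3 genes a direction with the largest called difference from 11 to 24 hpf, genes at 0 in all cells, and the 3 genes most like the members; stk31, gra, nanos3, dazl, hsp90ab1, MOV10L1 and the marker genes were added after their values were seen. Members and lists were chosen with earlier results of these data known. With 1 embryo per stage no statistical test between stages was made. Alternatives were other pseudocounts, filters and scalings, the mean of log values and leaving out cells.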

Additional observations from a re-analysis of the deposited data

How the results depend on the processing

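The tdrd7a call from 11 to 24 hpf and from 6 to 24 hpf was kept under every pseudocount, filter, scaling and omission of a cell that was tried. Where an alternative altered the difference of a single gene, 245 values moved by less than the spread between cells and 19 by more, and no called difference changed sign. Calls of lower genes from 11 to 24 hpf, 2 as reported, became 1 with a pseudocount of 10 and 4 on the mean alone. They were 3 after division by actb1 and between 2 and 3 without single cells. Of the kept genes 8.23% were called lower with that pseudocount, 12.5% after division by actb1 and between 12% and 16.4% without single cells. Calls of lower genes from 6 to 11 hpf, 0 as reported, were 2 (tdrd1 and asz1) after division by actb1. Of the kept genes 16.7% were then called lower. The calls were between 0 and 2 without single cells, beside 9.52% to 10.5% of the kept genes, and 4 on the mean alone. Calls of lower genes from 6 to 24 hpf, 3 as reported, were between 3 and 5 without single cells. The share of the kept genes called lower was then between 16.7% and 19.4%. The calls were 2 with a pseudocount of 10 or a filter at an FPKM of 5, beside 11.4% and 14.7% of the genes kept. On the mean alone they were 6. Calls of higher genes, 0 as reported, were between 0 and 1 without single cells in each of the 3 comparisons. The share of the kept genes called higher was then 6.91% to 9.45% from 6 to 11 hpf. It was 9.26% to 12.5% from 11 to 24 hpf and 11.2% to 15.3% from 6 to 24 hpf. On the mean alone the calls were 0 from 6 to 11 hpf, 2 from 11 to 24 hpf and 2 from 6 to 24 hpf. Without 24_1 and 24_2, an alternative chosen after seeing the data, 1 gene was called higher from 11 hpf and 2 from 6 hpf. Of the kept genes 23.5% and 25.9% were then called higher. The share of summed FPKM at 24 hpf was 0.0688%. The cause of these changes was not tested. Median-of-ratios scaling and a common total moved the median of all kept genes to -0.24 and -0.17 from 11 to 24 hpf. No paired analysis was possible because the replicate numbers only name cells and no result comes from a test.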

Other observations

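The kept genes whose profile over the 9 cells was most like the mean standardised profile of the 6 kept Piwi and Tudor pathway genes were nol6, larp6 and fbxo32, with r of 0.91, 0.90 and 0.90 over 9 cells of 3 embryos. Like asz1 and tdrd6, they were higher in 24_3 than in 24_1 and 24_2, where all 3 were at 0. The FPKM of fbxo32 was 36.8, 85.3 and 112 in 6_1, 6_2 and 6_3. It was 5.67, 17.6 and 47.6 in the 11 hpf embryo and 37.8 in 24_3. Members themselves had r between -0.088 (tdrd9) and 0.87 (asz1) with this mean profile, of which they are part.

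Further rows of the same families were read after the values had been seen. A row named TDRD7 (ENSDARG00000077523) and the rows mov10b.1 and mov10b.2 were listed at 0 in all 9 cells. The gene mov10a had FPKM of 12.3 in 6_1, 15.4 in 6_3, 23.8, 8.94 and 9.01 at 24 hpf and was listed at 0 in 6_2 and in all cells at 11 hpf.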
